A study of Mus musculus with 10 samples.

Results

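A set of 10 genes that make long noncoding RNAs was followed in mouse blood-forming stem cells after an injection that causes endoplasmic reticulum (ER) stress. They were taken by name from the deposited expression table as known hosts of small nucleolar RNAs (snoRNAs), nuclear structural RNAs and a microRNA host. All 10 named genes were found among the 51670 gene models of the table: Gas5, Snhg1, Snhg3, Snhg8, Snhg12, Snhg15, Epb41l4aos, Malat1, Neat1 and Mir17hg. The filter on low values was passed by 9 of the 10, and Snhg3 did not pass it. The RNA came from cells sorted from bone marrow as CD48-CD150+LSK, a gate for hematopoietic stem cells. The control group was 5 libraries from wild-type C57BL/6J mice that received DMSO, the solvent, into the peritoneum. The treated group was 5 libraries from wild-type C57BL/6J mice that received Tunicamycin at 2 mg/kg by the same route. Tunicamycin stops cells from attaching N-linked sugars to new proteins, so that unfolded protein collects in the ER. Age, the number of cells or animals per library and the time from injection to sorting were not given in the sources used here. No label ties a library to an animal of its own, and the p-values therefore speak only of the spread among these libraries.

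A snoRNA host gene is transcribed as a long precursor, snoRNAs are cut from its introns and guide the modification of ribosomal and other RNAs, and the spliced remainder is exported and often degraded while it is being translated. Several host transcripts begin, as ribosomal protein mRNAs do, with a run of pyrimidines called a terminal oligopyrimidine (TOP) tract, which ties their use and turnover to cell growth. Malat1 and Neat1 lie side by side and stay in the nucleus: Malat1 concentrates in nuclear speckles, which hold splicing factors, and Neat1 is the scaffold of paraspeckles. Mir17hg is the precursor of the miR-17-92 cluster, a group of growth-promoting microRNAs.

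The first bases are shown for 4 host RNAs, those whose annotated start has a run of at least 3 pyrimidines. A pyrimidine run is how TOP mRNAs begin, but whether these runs act as TOP tracts was not tested. The lines below are RefSeq starts on GRCm38.p6, 5′ to 3′ along the RNA's own strand and written as DNA. The unbroken run of C and T from the annotated start is in capitals. The Gas5 line is at chr1:161035166-161035195 (plus strand), Snhg1 at chr19:8723487-8723516 (plus), Snhg8 at chr3:123508307-123508336 (minus) and Snhg12 at chr4:132308678-132308707 (plus).
Gas5: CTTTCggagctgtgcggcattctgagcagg
Snhg1: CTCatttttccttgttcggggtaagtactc
Snhg8: CTCTTTggctgcgatccgcctacgagtatg
Snhg12: TTTCTCgcttcatccgcggtccctgtctgt
A run of at least 5 such bases was found at the start of Gas5 (the downstream of its RefSeq starts), Snhg8 and Snhg12. Snhg1 had a run of 3, which is below that length. The RefSeq starts of Snhg3 and Snhg15 and the upstream start of Gas5 had a run of 0. A run of at least 5 was found in 4.44% of the 32851 RefSeq start windows and in 23.9% of the 67 windows of ribosomal protein genes, so many annotated starts do not sit on the tract.

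The promoter window of Snhg1 is shown because it also holds the GENCODE start of another gene, Slc3a2, which runs the opposite way. It covers chr19:8723237-8723536 on the plus strand of GRCm38.p6, from 250 bases before the RefSeq start to 50 bases from it onward, with the pyrimidine run in capitals.
Snhg1 promoter: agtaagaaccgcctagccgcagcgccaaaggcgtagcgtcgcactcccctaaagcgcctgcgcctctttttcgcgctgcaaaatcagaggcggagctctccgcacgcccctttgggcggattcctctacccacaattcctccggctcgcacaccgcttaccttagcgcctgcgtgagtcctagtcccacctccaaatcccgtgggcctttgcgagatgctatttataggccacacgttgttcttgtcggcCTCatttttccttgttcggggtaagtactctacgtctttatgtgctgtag
The motifs searched on both strands in the 300-base windows were CACGTG (an E-box, bound by Myc-type factors), TGATGCAA (bound by Atf4 with its partners) and TGACGTGG (bound by ER stress factors). None of these letter strings occurred in the windows of Snhg1 or Malat1. Snhg15 held 1 CACGTG, which begins 12 bases into the transcript, and 7.15% of all windows hold that motif. TGATGCAA occurred in 0.895% of all windows and TGACGTGG in 0.676%.

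The microRNAs of Mir17hg fall into seed families, and the lines below give 1 mature arm of each hairpin from RefSeq (GRCm38.p6, all on chromosome 14, plus strand) with the seed, bases 2 to 8, in capitals.
miR-17-5p: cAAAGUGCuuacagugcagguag
miR-20a-5p: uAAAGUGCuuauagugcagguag
miR-18a-5p: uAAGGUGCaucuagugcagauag
miR-19a-3p: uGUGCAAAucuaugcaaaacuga
miR-19b-3p: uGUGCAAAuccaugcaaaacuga
miR-92a-3p: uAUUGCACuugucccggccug
The arms miR-17-5p and miR-20a-5p share a seed, as do miR-19a-3p and miR-19b-3p. The mature microRNAs were not measured; the table gives the host gene.

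Values are FPKM, fragments scaled to gene length and library size, as the authors deposited them. Estimated depths, read from the step size of low values, ran from 18600000 reads in DMSO 3 to 60300000 in DMSO 4 and could not be had for Tunicamycin 1. Tunicamycin 1 was deposited in whole numbers only and was the lowest of the treated libraries for 61.6% of the tested genes, and for 6 of the 10 noncoding RNAs. DMSO 3 and DMSO 5 held Y-linked transcripts (summed level 61.3 and 51.6 FPKM) and almost no Xist, whereas the other 8 libraries held Xist at 28.2 to 35.6 FPKM. Of 14 stem cell markers 9 rose and none fell; Kit, part of the gate, stood at 101 ± 17.7 FPKM in DMSO and 107 ± 22.9 FPKM in Tunicamycin (SD, n = 5). All 12 macrophage markers rose, and their summed level went from 531 to 1167 FPKM in the DMSO libraries to 2061 to 5563 FPKM in the treated ones. Endothelial markers rose for 7 of 8, with sums of 60.7 to 116 FPKM against 111 to 258 FPKM. Erythroid markers fell for 9 of 12 and rose for 3, the globin genes Hba-a1 and Hbb-bs and the heme enzyme Alas2. None of 5 tested granulocyte markers passed the test. The 6 B and T cell markers summed to 1.75 to 3.73 FPKM in DMSO and 2 to 7.55 FPKM in Tunicamycin, and Cd79a, the only 1 tested, rose. All 10 unfolded protein response genes rose and all 8 genes of dividing cells fell. Beside these marker counts, 29.9% of all tested genes were higher and 15.4% lower by the same test. In such bulk libraries, fewer cells of a type and less RNA per cell cannot be told apart, and the part of these other cell types in the levels that follow was not tested.

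Malat1 and Neat1 rose, Snhg1 fell, and the other 6 tested noncoding RNAs did not pass the test. A gene was called at a limma adjusted p under 0.05 over all 14727 tested genes. By that rule 29.9% of all tested genes were higher and 15.4% lower after Tunicamycin, against 2 and 1 of the 9 tested noncoding RNAs. Their counts are therefore near the background. The median change over all tested genes was 0.18 (log2), and that of the 9 was 0.03. Among the 922 tested genes annotated as long noncoding, 24.5% were higher and 4.23% lower, with a median of 0.26. Both shares lay below those over all tested genes. They also lay below the 34.8% higher and 15.1% lower of the 11382 tested protein-coding genes.

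**Figure D1:**
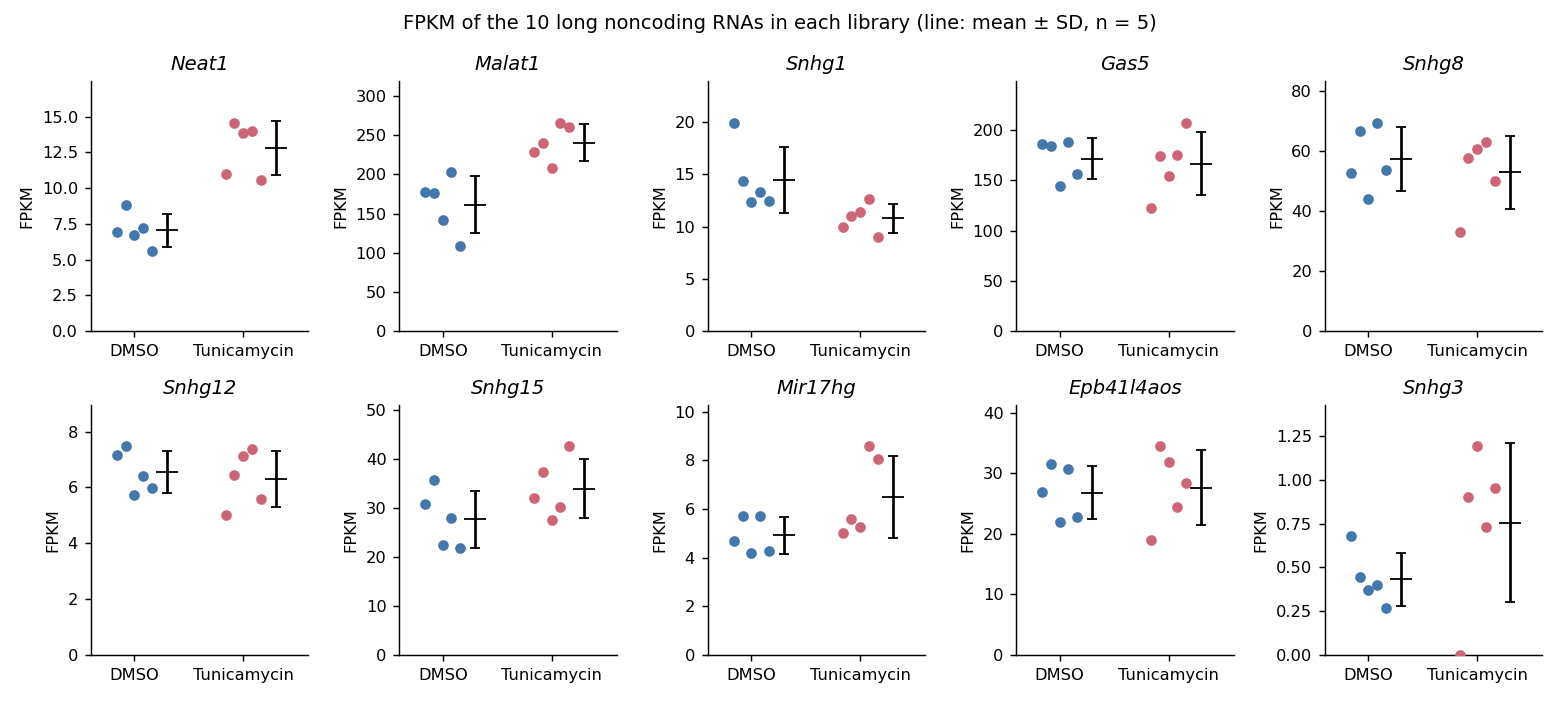
Level of each of the 10 noncoding RNAs in FPKM (vertical axes start at 0) in the 5 DMSO and 5 Tunicamycin libraries; points are libraries, and the line beside them is the mean ± SD. Only for Neat1 and Malat1 do all treated libraries lie above all DMSO libraries; Snhg1 shows 1 high DMSO library, at 19.9 FPKM.

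Neat1 (chr19:5824708-5845478, minus strand, GRCm38, GENCODE M21; a single annotated exon block of 20771 bp) had the largest change of the 9. It measured 6.96, 8.81, 6.76, 7.20 and 5.61 FPKM in DMSO 1 to 5 and 11, 14.6, 13.9, 14.0 and 10.6 FPKM in Tunicamycin 1 to 5. Every treated library lay above every DMSO library, the closest pair being 8.81 and 10.6 FPKM. The means were 7.07 ± 1.15 and 12.8 ± 1.87 FPKM (SD, n = 5), 1.81-fold apart, with a log2 change of 0.78 (SE 0.131, limma adjusted p = 0.000483). Its adjusted p stayed under 0.05 in all 18 other settings tried, where the change ranged from 0.54 to 0.94. The macrophage marker sums of the groups did not overlap either, and the part of such cells in the Neat1 level was not tested.

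Malat1 (chr19:5795690-5802672, minus strand) lies beside Neat1 and is much more abundant. It measured 178, 176, 142, 203 and 108 FPKM in DMSO 1 to 5 and 228, 240, 208, 266 and 260 FPKM in Tunicamycin 1 to 5. The groups did not overlap either, which held for 30.2% of all tested genes. The means were 161 ± 36.5 and 240 ± 23.8 FPKM (SD, n = 5), a log2 change of 0.60 (SE 0.160, limma adjusted p = 0.00880). The lowest DMSO libraries were DMSO 3 and DMSO 5, the pair with Y-linked transcripts. Without that pair the change was 0.37 with an adjusted p of 0.0619, and with every library scaled to an equal median it was 0.34 with an adjusted p of 0.109, so the call ended in both. Of the 583 tested genes with a mean level of 100 FPKM or more, as Malat1 and Gas5 had, 23.7% rose and 49.1% fell (median -0.39).

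The ratio of both nuclear RNAs did not differ beyond the spread between libraries. Neat1 divided by Malat1 was 0.0448 ± 0.00709 in DMSO and 0.0538 ± 0.0103 in Tunicamycin (SD, n = 5; exact two-sided permutation p = 0.135). The ranges of the ratio overlapped, 0.0356 to 0.0518 against 0.0406 to 0.0667. Frmd8, a partner of the shedding protease machinery that lies beyond Neat1, rose too, by 0.65 (log2, SE 0.132, limma adjusted p = 0.00165). Neither Neat1 isoform nor spliced form can be told apart from a single value per gene.

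Genes for the proteins of these nuclear bodies moved in both directions, as did all tested genes, of which 29.9% were higher and 15.4% lower. Of 18 tested paraspeckle proteins 9 fell and 3 rose, with a median change of -0.31. Those that fell include the RNA-binding protein Hnrnpa1 (-0.72, limma adjusted p = 0.000115), the cleavage factor subunit Nudt21 (-0.60, adjusted p = 0.000687) and Rbm14 (-0.74, adjusted p = 0.0011). Hnrnph3 (0.76, adjusted p = 0.00349) and Taf15 (0.35, adjusted p = 0.0397, a call lost in 10 of the 18 other settings) were among those that rose. Of 25 nuclear speckle and SR splicing factors 6 fell and 4 rose (median 0.11). The opposite ends of that list were Srsf5, which rose by 0.91 (adjusted p = 0.000117), and Srsf3, which fell by 0.82 (adjusted p = 9.13e-05). Of 13 tested genes for the 3′ end processing and methylation of Malat1 and Neat1, 5 fell and none rose (median -0.35). They include Pop1, a subunit of RNase P, from 7.45 ± 1.25 to 3.14 ± 0.301 FPKM (SD, n = 5; limma adjusted p = 5.82e-05), and Mettl16, a methyltransferase that binds the Malat1 triple helix, with a change of -0.47 (adjusted p = 0.00754). The count of 5 was 12 with equal medians and 2 with the Xist-positive libraries alone.

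Snhg1 (chr19:8723475-8726443, plus strand) hosts 8 annotated snoRNA models and was the only one of the 9 called lower. It measured 19.9, 14.4, 12.3, 13.3 and 12.4 FPKM in DMSO 1 to 5 and 10, 10.97, 11.4, 12.6 and 8.97 FPKM in Tunicamycin 1 to 5. The groups overlapped, since Tunicamycin 4 lay above DMSO 3 and DMSO 5, and DMSO 1 stood well above all others. The means were 14.5 ± 3.16 and 10.8 ± 1.39 FPKM (SD, n = 5), a log2 change of -0.38 (SE 0.139, limma adjusted p = 0.0408). DMSO 1 also had the highest summed level of erythroid markers, 8308 FPKM against 4429 to 7987 FPKM in the other DMSO libraries, and the part of that in its Snhg1 level was not tested. Without DMSO 1 the change was -0.27 with an adjusted p of 0.0910. The call also ended without DMSO 2 or 4 and without Tunicamycin 1, 2, 3 or 5 (adjusted p 0.0548 to 0.0828), with no filter on low values (0.131) and with TPM scaling (0.134). The direction was the same in all 18 other settings.

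Slc3a2, whose GENCODE start lies 106 bp from that of Snhg1 on the opposite strand, moved the other way. Its RefSeq promoter window lies apart, at chr19:8713848-8714147 on the minus strand, outside the Snhg1 window. Which start is used in these cells was not tested. Slc3a2 encodes the heavy chain of amino acid transporters and is a known target of the amino acid and ER stress response. It measured 88.4, 87.9, 66.9, 76.5 and 69.2 FPKM in DMSO 1 to 5 and 329, 274, 215, 201 and 280 FPKM in Tunicamycin 1 to 5. All treated libraries lay above all DMSO libraries, with a log2 change of 1.71 (SE 0.148, limma adjusted p = 5.62e-06). Within a library, Snhg1 stood at 0.185 ± 0.0237 of Slc3a2 in DMSO and 0.0437 ± 0.0139 in Tunicamycin (SD, n = 5). Those ratios did not overlap (exact two-sided permutation p = 0.00794, the smallest that 5 against 5 libraries can give). The ratio includes the rise of Slc3a2, whose groups were apart by themselves, so this p adds nothing on Snhg1 alone. On the other side Wdr74, a ribosome assembly factor, was lower, with a log2 change of -0.45 (SE 0.133, adjusted p = 0.0147), a call that ended with TPM scaling and in the Xist-positive libraries alone.

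**Figure D2:**
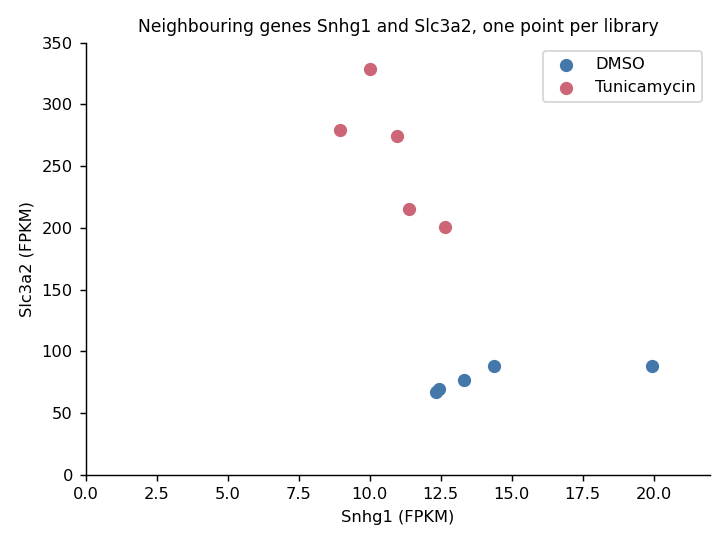
FPKM of Slc3a2 (vertical) against FPKM of Snhg1, its neighbour on the opposite strand (horizontal), 1 point per library, DMSO in blue and Tunicamycin in red. The treated libraries sit at 201 to 329 FPKM of Slc3a2 and 8.97 to 12.6 FPKM of Snhg1, and the DMSO libraries at 66.9 to 88.4 and 12.3 to 19.9.

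The other snoRNA hosts were not called. Gas5 (growth arrest specific 5, chr1:161034422-161038539, plus strand), with 10 annotated snoRNA models the richest host here, measured 186, 184, 144, 188 and 156 FPKM in DMSO 1 to 5 and 122, 175, 154, 175 and 207 FPKM in Tunicamycin 1 to 5. Both the lowest and the highest value were treated libraries. The log2 change was -0.06 (SE 0.145, limma adjusted p = 0.782), and it was positive in 3 other settings and called lower (-0.31, adjusted p = 0.0409) with equal medians. Gas5 overlaps Zbtb37 on the opposite strand, listed at 0.391 to 0.582 FPKM in DMSO, and the protocol names no strand, so reads of the overlap cannot be told apart. The annotated exons of Gas5, Snhg1, Snhg8 and Snhg12, merged over transcripts, cover all or nearly all of the gene, so that spliced and unspliced RNA are counted together.

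Snhg8 (chr3:123507552-123508404, minus strand), a short host with 1 snoRNA model, measured 52.7, 66.6, 43.9, 69.3 and 53.6 FPKM in DMSO 1 to 5 and 33, 57.7, 60.6, 62.8 and 49.997 FPKM in Tunicamycin 1 to 5. The log2 change was -0.13 (SE 0.180, limma adjusted p = 0.589). All treated libraries but Tunicamycin 1 fell inside the DMSO range, and without Tunicamycin 1 the change was 0.03.

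Snhg12 (chr4:132308623-132311024, plus strand), with 5 snoRNA models, stayed between 5.72 and 7.47 FPKM in DMSO and between 5 and 7.37 FPKM in Tunicamycin. Its log2 change was -0.05 (SE 0.123, limma adjusted p = 0.758), and the groups overlapped almost completely. Epb41l4aos, a host with 1 snoRNA model, ranged from 21.96 to 31.5 FPKM in DMSO and from 19 to 34.5 FPKM in Tunicamycin (change 0.03, SE 0.163, adjusted p = 0.899). That snoRNA model, Gm23639, was listed at 2.72 to 7.05 FPKM.

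Snhg15 (chr11:6525591-6528760, minus strand), a host that in human cells is raised by several cell stresses, measured 30.7, 35.7, 22.5, 27.9 and 21.8 FPKM in DMSO 1 to 5 and 32, 37.4, 27.6, 30.1 and 42.6 FPKM in Tunicamycin 1 to 5. The highest value belonged to Tunicamycin 5, but the groups overlapped. The log2 change of 0.29 (SE 0.156, limma adjusted p = 0.147) did not pass the test. Its neighbours Ccm2, a scaffold protein of vascular signalling, and Myo1g, a myosin of blood cells, were called higher by 0.55 (adjusted p = 0.0115) and 0.53 (adjusted p = 0.0352). The call of Myo1g ended in 12 of the 18 other settings.

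Snhg3 (chr4:132348014-132353686, minus strand), with 2 snoRNA models, was the lowest of the 10 and was not tested because only 1 library reached 1 FPKM. It measured 0.677, 0.445, 0.369, 0.399 and 0.269 FPKM in DMSO 1 to 5 and was listed at 0 in the whole-number library Tunicamycin 1. In Tunicamycin 2 to 5 it measured 0.902, 1.19, 0.728 and 0.955 FPKM. These levels rest on about 6.8 to 54 reads a library. Snhg3 overlaps Rcc1, a chromatin-bound exchange factor, on the same strand, so that reads shared by both cannot be assigned with certainty. Rcc1 itself was lower, with a log2 change of -0.83 (SE 0.130, limma adjusted p = 0.000283).

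**Figure D3:**
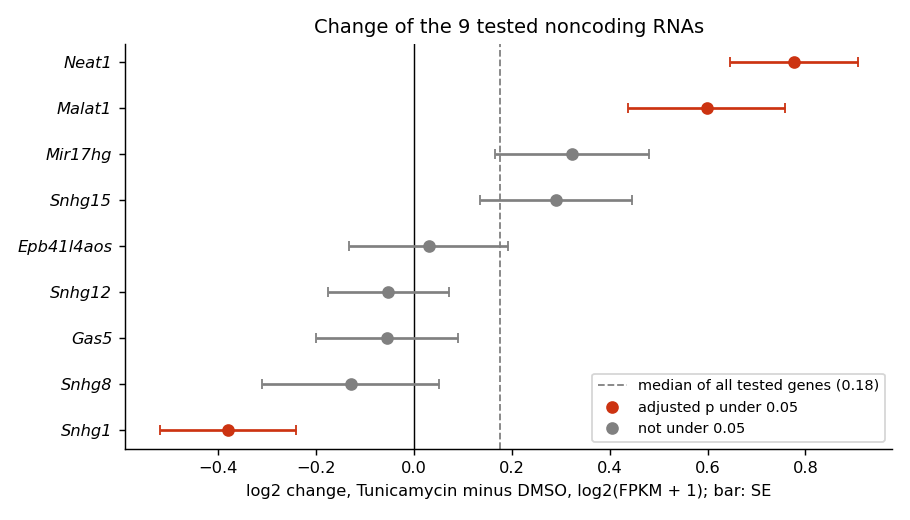
Change of the 9 tested noncoding RNAs, Tunicamycin minus DMSO on the log2(FPKM + 1) scale (horizontal axis), with the SE as bar; red points have an adjusted p under 0.05. Neat1 (0.78) and Malat1 (0.60) lie above the dashed median of all tested genes (0.18), and Snhg1 (-0.38) below 0.

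Mir17hg (chr14:115042879-115046727, plus strand) measured 4.69, 5.69, 4.17, 5.73 and 4.26 FPKM in DMSO 1 to 5 and 5, 5.58, 5.25, 8.57 and 8.06 FPKM in Tunicamycin 1 to 5. Tunicamycin 4 and 5 were above all DMSO libraries and the other 3 lay within the DMSO range. The log2 change of 0.32 (SE 0.157, limma adjusted p = 0.111) did not pass, and it did so with TPM scaling (0.47, adjusted p = 0.0361) and without Tunicamycin 1 (0.40, adjusted p = 0.0466). Of 8 genes reported to control its promoter, Mycn rose by 0.77 (adjusted p = 0.00682), while Trp53 (-0.61, adjusted p = 0.000652), E2f3 (-0.56, adjusted p = 0.00296) and E2f1 (-0.50, adjusted p = 0.0122) fell. The other 4, Myc among them, were not called, and the median change of the 8 was -0.01. The shares over all tested genes were 29.9% higher and 15.4% lower.

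Of 28 genes reported as targets of the miR-17-92 cluster, 14 rose and 2 fell, with a median change of 0.40. That share of risers stands beside 29.9% of all tested genes, and nothing particular to the list is read from it. The TGF-beta receptor Tgfbr2 rose from 5.29 ± 1.4996 to 14.5 ± 2.40 FPKM (SD, n = 5; limma adjusted p = 7.76e-05). The transcription factor Stat3 rose by 1.12 (adjusted p = 9.98e-05) and Tnfaip3, an inhibitor of NF-kappa-B signalling, by 1.26 (adjusted p = 0.000664). Rbl1, a pocket protein of the cell cycle (-0.63, adjusted p = 0.000614), and E2f1 fell.

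Protein-coding snoRNA hosts were mostly lower, against 15.4% of all tested genes. Of 38 tested protein-coding genes that carry snoRNAs in their introns, 32 fell and 1 rose, with a median change of -0.83. Examples are Rpl13a, a ribosomal protein (-0.97, limma adjusted p = 1.8e-05), Rack1, a ribosome-bound scaffold (-1.09, adjusted p = 4.63e-05), and Cct6a, a chaperonin subunit (-0.997, adjusted p = 5.04e-05). Many of these hosts are ribosomal protein genes, a family of which 75 of 77 tested members fell (median -0.86). The protein-coding hosts were also abundant, with a mean log2(FPKM + 1) of 7.62 in DMSO, against 3.54 for the other noncoding hosts tested. Of the 583 tested genes with a mean level of 100 FPKM or more, 49.1% fell (median -0.39). The part of abundance in the host counts was not tested. Of 20 further TOP genes of translation 15 fell, the largest being Eef1g at -1.21 (adjusted p = 2.58e-05).

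Other noncoding hosts were mixed, with the shares over all tested genes at 29.9% higher and 15.4% lower. Of 10 tested, Snhg5 fell and Snhg14 rose (0.50, limma adjusted p = 0.0496, a call lost in 13 of the 18 other settings), and the median was 0.13. Snhg5 measured 65.1, 42.4, 40.3, 40.4 and 44.9 FPKM in DMSO 1 to 5 and 26, 21.7, 25.5, 26.8 and 22.9 FPKM in Tunicamycin 1 to 5. The groups did not overlap, and its change of -0.88 (SE 0.135, adjusted p = 0.000269) was near the median of the protein-coding hosts. Zfas1, an abundant host, had a change of 0.11 (adjusted p = 0.618), Snhg6 one of 0.09 (adjusted p = 0.830) and Snhg17 one of 0.00462 (adjusted p = 0.981). The difference between noncoding and protein-coding hosts was not tested as a set.

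Genes for proteins that bind and assemble snoRNAs were called lower or not called. The shares over all tested genes were 29.9% higher and 15.4% lower. Of 8 core proteins of snoRNA particles 6 fell, among them Nop58 of the C/D type (-0.82, limma adjusted p = 9.67e-05) and Nhp2 and Dkc1 of the H/ACA type (-1.25, adjusted p = 0.000105, and -0.90, adjusted p = 0.000227). Of 11 tested assembly factors 4 fell, with Nolc1 at -0.79 (adjusted p = 0.00101) and the helicases Ruvbl1 and Ruvbl2 at -0.54 and -0.65. That count of 4 was 8 with equal medians, 8 with quantile normalization and 7 without Tunicamycin 5. Of 24 factors of nonsense-mediated decay, the route that removes many spliced host RNAs, 4 rose and 5 fell (median 0.03). Those decay factor counts are near or below the shares over all tested genes, and nothing particular to the list is read from them. Upf3a rose by 0.69 (adjusted p = 0.00495) and Eif4a3, the anchor of the exon junction complex, fell by 0.53 on the log2 scale (adjusted p = 0.000726).

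**Figure D4:**
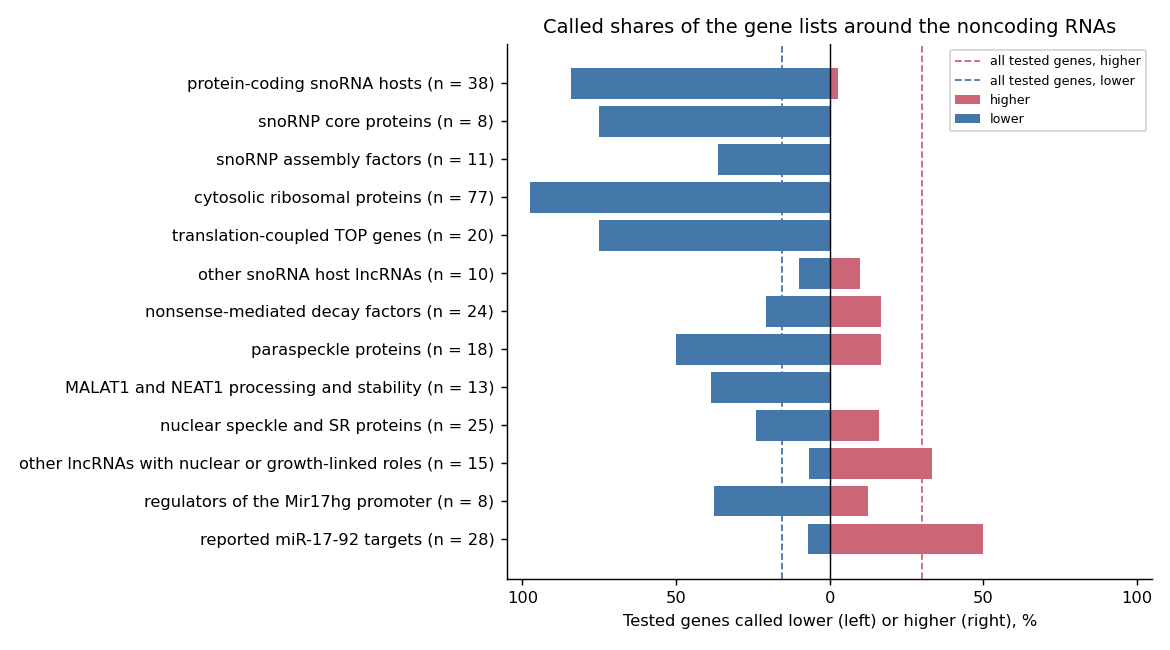
Share of the tested genes of each list that were called lower (bars to the left) or higher (bars to the right) after Tunicamycin, in percent; dashed lines give the shares over all tested genes, 15.4% lower and 29.9% higher. Protein-coding snoRNA hosts (32 of 38 lower) contrast with the other noncoding hosts (1 of 10 lower). These host lists also differ in abundance.

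Set against the ribosomal protein genes of the same library, every noncoding RNA stood higher after Tunicamycin. The mean log2(FPKM + 1) of the 77 ribosomal protein genes was 8.92 ± 0.182 in DMSO and 8.08 ± 0.188 in Tunicamycin (SD, n = 5). Relative to it, the difference was 0.79 for Gas5, 0.72 for Snhg8, 0.79 for Snhg12, 1.14 for Snhg15, 0.88 for Epb41l4aos, 1.17 for Mir17hg, 1.44 for Malat1 and 1.62 for Neat1 (log2). In these 8 the groups did not overlap (exact two-sided permutation p = 0.00794 each, unadjusted, 10 genes compared). The difference for Snhg1 was 0.47 with overlapping groups (exact permutation p = 0.0159), the smallest of the 10. For the untested Snhg3 it was 1.10 (exact permutation p = 0.00794), and with a pseudocount of 0.1 the p was 0.119. Groups apart in this direction were seen for 65.1% of all tested genes, against 8 of the 9 tested noncoding RNAs, so most of the transcriptome shares this shift. The ribosomal mean itself changed by -0.85 (log2), so a gene with no change of its own also stands higher against it. These differences and their p-values therefore include the fall of the ribosomal protein genes. The comparison was chosen after seeing the data.

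**Figure D5:**
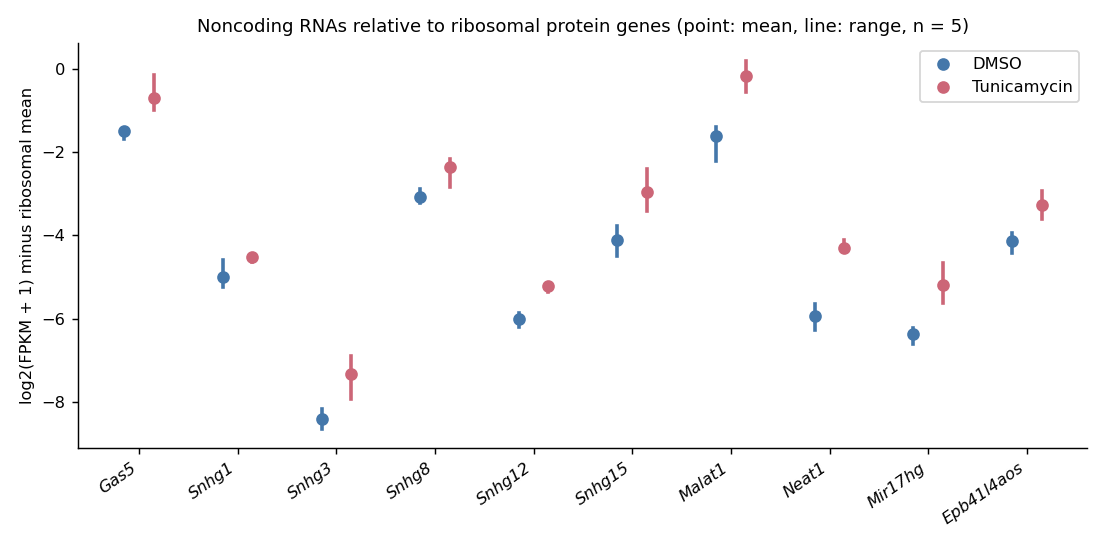
Level of each noncoding RNA as log2(FPKM + 1) minus the mean of 77 ribosomal protein genes in the same library (vertical axis); points are means and lines the range over 5 libraries, DMSO in blue and Tunicamycin in red. The ranges are apart for all genes shown except Snhg1.

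The order of the listed FPKM values changed at the top. FPKM is scaled by length, but the annotation behind it and the capture of RNA without a poly(A) tail are not stated. The order is therefore one of listed values and may differ from that of RNA amounts. In DMSO it ran Gas5, Malat1, Snhg8, Snhg15, Epb41l4aos, Snhg1, Neat1, Snhg12, Mir17hg, Snhg3, and the ranges of Gas5 and Malat1, Snhg15 and Epb41l4aos, Neat1 and Snhg12, and Snhg12 and Mir17hg overlapped. In Tunicamycin Malat1 stood first and did not overlap Gas5, and Neat1 passed Snhg1 and Mir17hg passed Snhg12, both with overlapping ranges; those of Snhg8 and Snhg15 and of Snhg15 and Epb41l4aos overlapped there too. Within a library the ratio of Malat1 to Gas5 was 0.935 ± 0.143 in DMSO and 1.47 ± 0.241 in Tunicamycin (SD, n = 5). Its ranges, 0.696 to 1.08 and 1.26 to 1.87, did not overlap (exact two-sided permutation p = 0.00794).

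The spread among libraries was shared by some of these RNAs. With the group means removed, the correlation over the 10 libraries was 0.812 for Snhg8 with Epb41l4aos and 0.809 for Snhg8 with Snhg12. It was 0.443 for Malat1 with Neat1. All values of a library share its depth, and Tunicamycin 1 was lowest of the treated for Gas5, Snhg3, Snhg8, Snhg12, Mir17hg and Epb41l4aos, so these correlations describe the libraries as well as the genes.

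The genes whose pattern over the 10 libraries was most like Neat1 were Cytip, an adaptor of blood cell adhesion (Pearson r = 0.985), Nfkbiz, an inducible partner of NF-kappa-B (0.982), and Trp53inp2, an autophagy factor (0.979). Those most like Malat1 were Gm12966 (0.963), Gm17334 (0.945) and Gm25835 (0.930). Snhg1 was most like Ddx10, an RNA helicase of ribosome assembly (0.986), Gas5 most like 1700123M08Rik (0.952), and Snhg15 most like Prkar2b, a regulatory subunit of protein kinase A (0.954). For Snhg8 the closest was Platr17 (0.904), for Snhg12 Zfp146 (0.891), for Mir17hg Tsacc (0.960) and for Epb41l4aos Tbca, a tubulin cofactor (0.913). These are descriptions over 10 libraries in 2 groups, chosen as the highest of 14727 genes.

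Other long noncoding RNAs with nuclear or growth-linked roles gave 5 higher and 1 lower of 15 tested. Of all tested genes 29.9% were higher and 15.4% lower, and of the 922 tested long noncoding genes 24.5% and 4.23%. The counts are near these shares, and nothing particular to the list is read from them. Mir22hg, host of miR-22, measured 1.67, 1.54, 1.47, 1.16 and 0.882 FPKM in DMSO 1 to 5 and 7, 9.46, 5.68, 4.63 and 6.97 FPKM in Tunicamycin 1 to 5. Its groups were far apart, with a change of 1.71 (SE 0.170, limma adjusted p = 1.43e-05). Lncpint, a p53-responsive RNA, rose from 4.92 ± 1.11 to 11.6 ± 2.91 FPKM (adjusted p = 0.000296) and Mir155hg, host of miR-155, from 1.43 ± 0.165 to 4.53 ± 1.71 FPKM (SD, n = 5; adjusted p = 0.000328). Mirt1 and Firre were the other risers. Pvt1, the neighbour of Myc, was lower, with a change of -0.49 (adjusted p = 0.0248), a call that 7 of the 18 other settings did not keep.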

How the data were processed

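The authors deposited 1 table of FPKM values for 51670 mouse gene models in 10 libraries; the depth is not stated. Per the submitters' processing notes, Bowtie 0.12.9, Cufflinks 2.1.1, HTSeq, DESeq2 and the build mm10 were used, with no role or annotation given. In Tunicamycin 1 the deposited values are whole numbers and are handled as a score that stands for FPKM without decimals. RNA was extracted with a miRNeasy kit, amplified by Geo-seq and made into libraries with a Tn5 kit, per the labels' protocols; these speak of reverse-transcribed mRNA and do not say how RNA without a poly(A) tail, such as mature Malat1, was captured.

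Symbols and gene positions came from GENCODE M21 (GRCm38) for 51389 models, sequences from RefSeq tables of GRCm38.p6. Genes with at least 1 FPKM in at least 5 libraries (14727) were fitted with limma 3.58.1 in R 4.3.3 (lmFit, eBayes with trend) on log2(FPKM + 1), group as the only term, with Benjamini-Hochberg adjustment over all tested genes and a threshold of 0.05 for calls. All adjusted p-values come from this fit or its repeats under 18 other settings. Fold changes on this scale understate the change of low genes. Within-library ratios and differences had exact two-sided permutation tests over 252 assignments. The fit was tested on simulated data. The genes and lists were chosen with earlier results of these data known. Named genes are all 10 noncoding RNAs, up to 3 called genes per list and direction with the smallest adjusted p, the nearest protein-coding neighbours, and up to 3 genes of highest Pearson r for each noncoding RNA; values of Zfas1, Snhg6, Snhg17, Mirt1 and Firre were added after they were seen. Depth was estimated from the step size of low values, of which 82.8% to 95.4% per library lay within 0.05 reads of a whole number; with lengths from another annotation no count test was run. The replicate numbers of the titles were taken as names only. Some genes that this rule names are not reported here.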

Additional observations from a re-analysis of the deposited data

Results flagged for a closer look

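Among the 20 sets of 5 values formed by the 10 noncoding RNAs in both groups, 1 held a library far from the others: Snhg1 in DMSO 1, at 19.9 FPKM. The gap to the next DMSO library was 0.735 of the range of the group, above Dixon's 95% critical value for 5 values. Chance alone gives about 1 such value in 20 sets. The call of Snhg1 as lower ended without this library, where its log2 change was -0.27.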

How the results depend on the processing

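Neat1 was called higher in every setting run, and Malat1 and Snhg1 kept their direction. The number of noncoding RNAs called higher, 2, was 1 with equal medians and 1 in the Xist-positive libraries alone. The number called lower, 1, was 0 without a filter and 0 with TPM scaling, 2 with equal medians (Gas5 joined Snhg1), and 0 to 1 when each library was left out in turn. All tested genes called lower numbered 2261, and 3972 with equal medians and 3767 with quantile normalization; the higher share of all calls was 66.1%, 43.3% and 47.6%, and 76.4% with TPM scaling. The scalings moved the median change of all genes from 0.18 to -0.04, -0.01 and 0.31. Uncalled genes changed sign. Gas5 was at 0.0727 with TPM scaling and 0.0322 with quantile normalization, and between -0.139 and 0.0511 with a library left out. Snhg8 ranged from -0.218 to 0.0281 and Snhg12 from -0.104 to 0.0163 with a library left out, and Snhg12 was at 0.0627 with TPM scaling. Epb41l4aos was at -0.222 with equal medians, -0.0721 with quantile normalization and -0.125 in the Xist-positive libraries, and ranged from -0.0539 to 0.153 with a library left out. The neighbours did likewise: Trnau1ap was at -0.0718 with equal medians, Phactr4 at 0.0621 with TPM scaling, 0.0385 with whole numbers in all libraries and -0.159 to 0.0247 with a library left out, Tpm3-rs7 at -0.157, -0.1005 and -0.0064 with equal medians, quantile normalization and the Xist-positive libraries, and Epb41l4a at -0.221 with a pseudocount of 0.1, -0.0876 with equal medians and -0.0920 with quantile normalization. The cause of these shifts was not tested.

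With the replicate number as a block, 4553 genes were higher and 2248 lower, and the same 3 noncoding RNAs were called. Deviations of same-numbered libraries correlated at 0.0207 to 0.248, and 2 of 5 DMSO libraries correlated best with the treated library of their own number. Whether the numbers pair the samples cannot be told from so few libraries. Snhg3, at about 6.8 to 54 reads a library, is limited by depth.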
